A study of Mus musculus with 14 samples.

Results

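The immunity-related GTPases (IRG) Iigp1, Tgtp, Igtp, Irgm1 and Irgm2 were followed in mouse tumours during adoptive T cell therapy. The 5 genes were taken by name, with earlier results of these data known, from 16628 genes that passed the filter on dim probes, and all 5 passed it. The tumours were of B16F10, a melanoma line, grown in C57BL/6 mice. The therapy was a transfer of cytotoxic T lymphocytes (CTLs), activated in vitro and marked by CD90.1, that are directed at gp100, a pigment-cell protein. In 1 arm the CTLs were given with an anti-interferon gamma antibody, in another with a control rat IgG, in another alone, and untreated tumour-bearing mice served as the remaining arm. Mice were injected with 1000000 B16F10 cells, and tumours grew for 9 days before day 0, the day of transfer. The dose was 10000000 CTLs, and the antibody or rat IgG was given on days 0 and 2. Both antibody arms were sampled on days 3, 5 and 7 after the transfer, with RNA of 3 tumours pooled per array. The CTL and untreated arms were sampled on days 1, 3, 5 and 7, with RNA of 4 tumours pooled per array. No arm and day was measured on more than 1 array, so the day is the replicate here, n counts days, and the spread between single mice was not measured. All 4 arms carry the same tumour and mouse strain, and the age of the mice is not given in the sources used here.

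Levels are log2 of the background-subtracted signal of a 60-base probe minus the 75th percentile of that array, so a difference of 1 is a 2-fold difference and a level of 0 equals the 75th percentile. Levels of different probes share no scale, so genes are compared only by their differences between arms. The members had 8 probes among 41174. The probe used for Iigp1 lies at chr18:60517868-60517927 on the plus strand (build mm8, as in the files). Those of the other 4 members lie on chromosome 11: Tgtp at chr11:48830094-48830153 and Irgm1 at chr11:48708990-48709049 on the minus strand, and Igtp at chr11:58023620-58023679 and Irgm2 at chr11:58038757-58038816 on the plus strand. No exon annotation of that build was used here. The array's own names are Irgm for Irgm1 and Iigp2 for Irgm2. All 5 probes used were well above background on 14 of 14 arrays and none was saturated. Across the arrays, 48.9% to 59.7% of spots were well above background.

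IRG proteins are large GTPases of mice that interferons, above all interferon gamma, induce in many cell types. They defend the inside of the cell: effector members coat the vacuoles in which parasites and some bacteria live and break them open. Effectors such as Iigp1 (Irga6) and Tgtp (Irgb6) carry a GKS sequence in the nucleotide-binding loop. The regulators Irgm1, Irgm2 and Igtp (Irgm3) carry GMS in its place, sit on the membranes of the host's own organelles and keep the effectors there inactive. Interferon gamma acts through its receptor and the kinases Jak1 and Jak2. Promoters of the genes it induces often hold gamma-activated sites (GAS) and interferon-stimulated response elements (ISRE), and Irf factors such as Irf1 bind the ISRE.

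The promoter windows are shown because members that moved together on the arrays can here be set side by side in sequence. RefSeq windows of build GRCm38.p6, from 250 bases before the annotated start to 50 after it, were at hand for 4 of the members. Tgtp1, the current symbol of Tgtp, lies at chr11:48992197-48992496 and Irgm1 at chr11:48871371-48871670, both on the minus strand. Igtp lies at chr11:58199306-58199605 and Irgm2 at chr11:58214727-58215026, both on the plus strand. Capitals mark matches, on either strand, to an ISRE core written GAAANNGAAA and to a GAS written TTCNNNGAA. The sequences read 5′ to 3′ on the strand of the gene.
Tgtp1: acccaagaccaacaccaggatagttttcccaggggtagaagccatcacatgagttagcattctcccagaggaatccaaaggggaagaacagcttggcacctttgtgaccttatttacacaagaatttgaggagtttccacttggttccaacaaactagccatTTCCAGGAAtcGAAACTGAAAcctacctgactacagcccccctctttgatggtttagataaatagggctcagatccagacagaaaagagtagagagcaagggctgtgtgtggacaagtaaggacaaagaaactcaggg
Igtp: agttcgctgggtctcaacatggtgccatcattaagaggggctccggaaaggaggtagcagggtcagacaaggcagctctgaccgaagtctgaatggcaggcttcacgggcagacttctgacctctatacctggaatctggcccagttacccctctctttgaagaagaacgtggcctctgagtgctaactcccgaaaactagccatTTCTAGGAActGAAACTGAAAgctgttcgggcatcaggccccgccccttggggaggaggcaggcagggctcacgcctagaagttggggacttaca
Irgm2: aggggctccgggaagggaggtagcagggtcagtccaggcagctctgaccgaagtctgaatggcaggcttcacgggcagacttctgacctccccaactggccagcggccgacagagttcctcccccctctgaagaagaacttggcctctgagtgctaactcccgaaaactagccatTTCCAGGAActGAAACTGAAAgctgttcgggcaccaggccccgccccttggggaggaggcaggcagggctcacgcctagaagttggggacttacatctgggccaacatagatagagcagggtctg
Irgm1: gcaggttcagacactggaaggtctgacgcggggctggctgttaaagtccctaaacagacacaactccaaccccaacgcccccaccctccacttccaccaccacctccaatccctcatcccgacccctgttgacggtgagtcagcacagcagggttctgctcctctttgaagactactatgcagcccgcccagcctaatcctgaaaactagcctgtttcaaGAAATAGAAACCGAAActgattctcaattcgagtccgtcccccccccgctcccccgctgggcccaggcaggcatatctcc

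Every one of the 4 windows held an ISRE core, which 3.44% of 32851 windows of the same length held, and 3 of the 4 held a GAS, which 8.30% held. Both motifs together were in 0.454% of all windows. In Tgtp1, Igtp and Irgm2 the GAS came first and 2 bases separated it from the ISRE core. That arrangement, noticed in these windows and then counted, was in 5 of the 32851 windows, those of Tgtp1, Tgtp2, Igtp, Irgm2 and Gm12185, all on chromosome 11. The first base of the ISRE core lay 77 bases before the start in Tgtp1, 34 in Igtp and 64 in Irgm2. Irgm1 held 2 ISRE cores that overlap by 4 bases, from 30 and 24 bases before its start, and its window held no match to the letters searched for GAS. Aligned on the first base of the ISRE core, for Irgm1 that of the first core, 40 bases of each gene read as follows.
Tgtp1: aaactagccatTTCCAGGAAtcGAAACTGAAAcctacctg
Tgtp2: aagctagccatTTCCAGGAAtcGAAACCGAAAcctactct
Igtp: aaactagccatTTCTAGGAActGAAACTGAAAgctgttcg
Irgm2: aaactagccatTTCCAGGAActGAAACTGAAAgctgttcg
Irgm1: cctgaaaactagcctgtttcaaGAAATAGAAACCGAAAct

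Of these 40 bases, Irgm2 shared 39 with Igtp, Tgtp1 32, Tgtp2 31 and Irgm1 14. The count for Irgm1 depends on which of its overlapping ISRE cores is aligned. Bases shared from its second core, or with gaps allowed, were not counted, so the value does not measure how alike the windows are. A match is a string of letters and not a measured site, and binding was not assayed in these samples. Tgtp1 and Tgtp2 are near-identical copies, so the signal of the Tgtp probes may come from either gene.

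**Figure D1:**
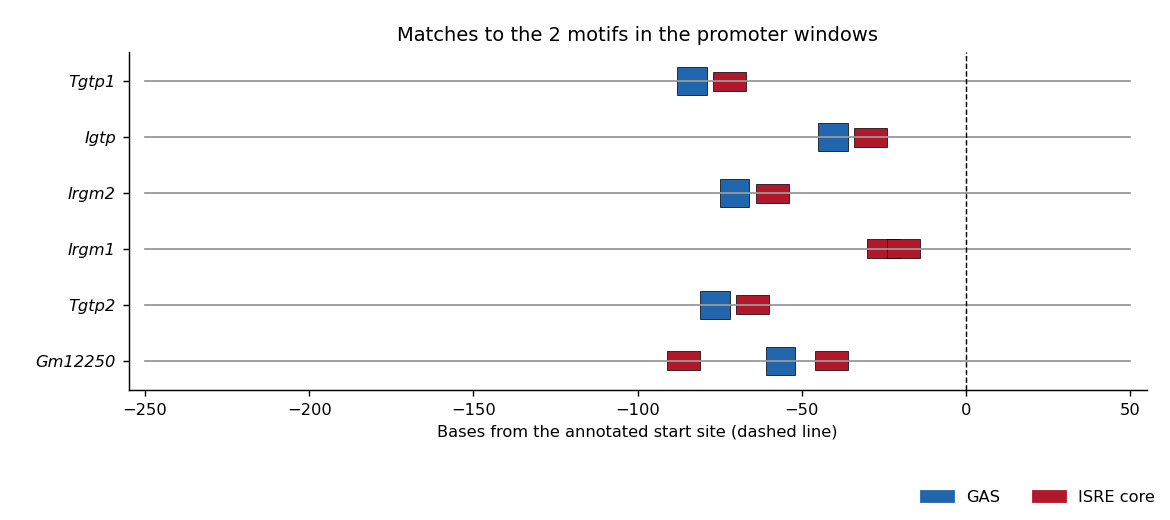
Matches to the ISRE core (red) and GAS (blue) in 300-base promoter windows of 4 members and of 2 further IRG genes, Tgtp2 and Gm12250, by distance in bases from the annotated start. In Tgtp1, Igtp, Irgm2 and Tgtp2 the GAS comes first and 2 bases separate it from the ISRE core, in Irgm1 there are 2 overlapping ISRE cores, and in Gm12250 a GAS lies between 2 ISRE cores.

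CTL transfer was examined first, over days 3 to 7. The 5 members were higher in CTL tumours than in untreated tumours on every day from 3 to 7, and their ranges over those days did not overlap. Of the 16628 genes, 12.5% were higher with ranges that did not overlap. Fitted differences were between 4.05 and 6.17 log2 units, and 5 of 5 members passed the threshold (limma, two-sided, adjusted p below 0.05 over all genes), against 10.3% of the 16628 genes called higher. The median over all genes was -0.10.

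Iigp1, an effector, had levels of 1.31, 6.64, 4.71 and 3.31 in CTL tumours on days 1, 3, 5 and 7, against -0.23, -2.31, 0.12 and -1.68 in untreated tumours. The CTL tumours were far above the untreated ones from day 3, and day 1 was the lowest day of the CTL arm. Over days 3 to 7 Iigp1 averaged 4.89 ± 1.67 in CTL tumours and -1.29 ± 1.26 in untreated tumours (SD, n = 3 days each), a difference of 6.17 ± 0.81 (SE) or 72.2-fold (limma adjusted p = 0.00168). The size depends on the day left out, at 27.6-fold (4.79 ± 0.29) without day 3, 125-fold (6.97 ± 1.06) without day 5 and 109-fold (6.77 ± 1.09) without day 7, each past the threshold. Tgtp, the other effector, had levels of 3.24, 8.08, 6.14 and 4.89 in CTL tumours on days 1, 3, 5 and 7, against 1.39, -0.19, 1.90 and -0.41 in untreated tumours. In CTL tumours the days stood in the same order as for Iigp1. The fitted difference for Tgtp over days 3 to 7 was 5.94 ± 0.66 (limma adjusted p = 0.000833), or 61.2-fold, against 27.2-fold without day 3 and 110.3-fold without day 5.

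Igtp, a regulator needed in mice for resistance to Toxoplasma, had levels of 3.62, 8.35, 6.57 and 5.25 in CTL tumours on days 1, 3, 5 and 7, against 2.10, 0.60, 2.04 and 0.65 in untreated tumours. Its lowest CTL value of days 3 to 7, on day 7, was above each untreated value. The fitted difference was 5.62 ± 0.61 (limma adjusted p = 0.000744), or 49.3-fold, against 23.6-fold without day 3 and 72.3-fold without day 5. Irgm1, a regulator needed in mice for resistance to several bacteria and protozoa, had levels of 2.76, 6.60, 5.29 and 4.41 in CTL tumours on days 1, 3, 5 and 7, against 1.72, 1.17, 1.76 and 1.23 in untreated tumours. Its fitted difference of 4.05 ± 0.42 was the smallest of the 5 (limma adjusted p = 0.000637), 16.6-fold, against 10.3-fold without day 3 and 22.3-fold without day 7. Irgm2 had levels of 2.63, 6.87, 5.38 and 4.17 in CTL tumours on days 1, 3, 5 and 7, against 1.28, 0.33, 0.94 and 0.48 in untreated tumours. The fitted difference for this regulator was 4.89 ± 0.48 (limma adjusted p = 0.000499), 29.6-fold, against 16.7-fold without day 3 and 44.9-fold without day 7. All 5 members passed the threshold without each of the days in turn. For each of the 5 members the same-day difference was largest on day 3.

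**Figure D2:**
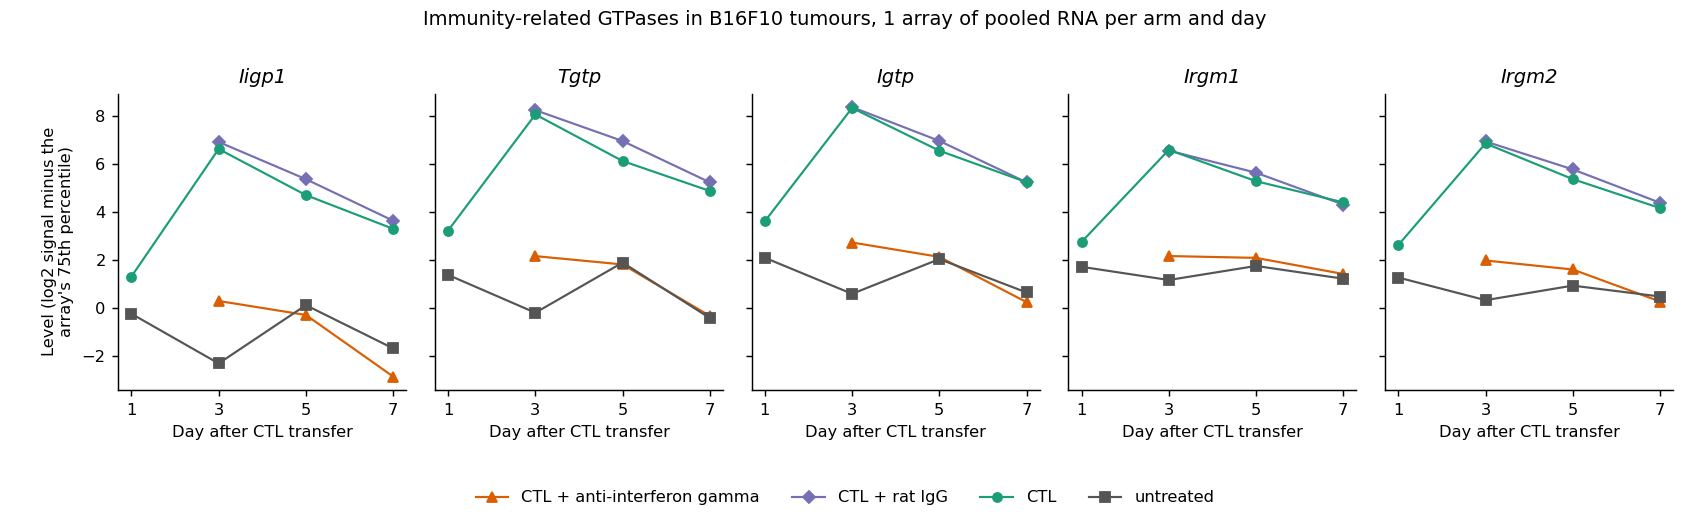
Level of each member (log2 signal minus the array's 75th percentile) by day after CTL transfer, 1 point per array, in tumours with CTLs and anti-interferon gamma (orange), CTLs and rat IgG (purple), CTLs alone (green) and no treatment (grey). CTL and IgG tumours lie together and high from day 3, with Iigp1 at 6.64 and 6.93 on that day, while antibody and untreated tumours lie low.

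Second probes moved the same way. The other Tgtp probe, at chr11:48829508-48829567, had a CTL minus untreated difference of 4.59 ± 0.71 (limma adjusted p = 0.0035 over 24560 probes). A further Irgm1 probe, at chr11:48709340-48709399, gave 4.10 ± 0.43 (limma adjusted p = 0.000652 over 24560 probes). The third Irgm1 probe, at chr11:48706132-48706191, was well above background on only 3 arrays, those of IgG tumours on days 3 and 5 and of CTL tumours on day 3, and no fold is given for it.

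Next came the course over days. The same-day CTL minus untreated difference had a median over the members of 1.52 on day 1, 7.75 on day 3, 4.44 on day 5 and 4.60 on day 7. On day 1 every member was higher in CTL tumours, by 1.04 for Irgm1 up to 1.85 for Tgtp, from 1 pair of arrays and with no replicate. On day 3 the same-day fold was 493 for Iigp1, 309 for Tgtp, 216 for Igtp, 92.8 for Irgm2 and 43.1 for Irgm1. The 2 effectors averaged 8.61 log2 units on that day and the 3 regulators 6.57, while the means were 4.41 and 4.17 on day 5 and 5.14 and 3.82 on day 7. These are values of single days and carry no test.

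The CTL effect of days 3 to 7 exceeded that of day 1 by 4.62 ± 1.62 for Iigp1, 4.08 ± 1.32 for Tgtp, 4.10 ± 1.22 for Igtp, 3.01 ± 0.85 for Irgm1 and 3.54 ± 0.97 for Irgm2. None of the 5 passed the threshold in limma (adjusted p from 0.164 to 0.255), and 5 had an unadjusted p below 0.05. The effect of day 1 comes from 1 array per arm, so its error is taken from the spread of the other days and arms. Of all genes, 0.86% were called with a larger CTL effect on the later days. From day 3 to day 7 the fitted slope of the CTL effect was negative for each member, between -0.99 per day for Iigp1 and -0.56 per day for Irgm1. In limma 0 of 5 members passed the threshold for the slope (adjusted p from 0.221 to 0.596), 4 of them with an unadjusted p below 0.05, and of all genes 0 (0%) passed while 1518 had an unadjusted p below 0.05. Within the CTL arm the day 3 level exceeded the day 7 level by 3.33 log2 units for Iigp1, 3.19 for Tgtp, 2.70 for Irgm2 and 2.19 for Irgm1, with Igtp between Iigp1 and Irgm2.

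Untreated tumours were not constant either. Iigp1 ranged there from -2.31 on day 3 to 0.12 on day 5, a 5.39-fold range, and Tgtp ranged 4.97-fold. For the regulators the range over the 4 untreated arrays was 2.84-fold for Igtp and 1.93-fold for Irgm2, and Irgm1 had the narrowest range, 0.59 log2 units. All 5 members were lower in untreated tumours on days 3 and 7 than on days 1 and 5. The day 3 difference, the largest of the days, was thus taken against a low untreated array, which for Iigp1 was 2.43 log2 units below that of day 5.

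The blocking antibody was then set against the control IgG, both with CTLs. All 5 members were lower with the antibody on each of days 3, 5 and 7, with fitted differences from -6.27 to -3.61, and 5 of 5 passed the threshold, against 6.04% of all genes called lower. The antibody and IgG ranges did not overlap for any member, and 15.1% of all genes were lower with ranges that did not overlap. The median over all genes was 0.05.

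Iigp1 had levels of 0.30, -0.29 and -2.85 in antibody tumours on days 3, 5 and 7, against 6.93, 5.38 and 3.65 in IgG tumours. The highest antibody value was below the lowest IgG value by over 3 log2 units. The fitted difference was -6.27 ± 0.81 (limma adjusted p = 0.00382), the 4th lowest of 16628 genes, and same-day levels in antibody tumours were 99.3-fold, 50.7-fold and 90.4-fold below those in IgG tumours on days 3, 5 and 7. Tgtp had levels of 2.17, 1.82 and -0.33 in antibody tumours on days 3, 5 and 7, against 8.26, 6.97 and 5.24 in IgG tumours. The same-day differences of this probe were -6.09, -5.15 and -5.57. The other Tgtp probe gave -6.00, -4.73 and -3.85, a gap that shrank over the days, and a fitted difference of -4.86 ± 0.71. For the probe used, the fitted difference of -5.60 ± 0.66 was the 8th lowest (limma adjusted p = 0.00281).

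Igtp had levels of 2.74, 2.14 and 0.25 in antibody tumours on days 3, 5 and 7, against 8.39, 6.97 and 5.25 in IgG tumours, a fitted difference of -5.16 ± 0.61 (limma adjusted p = 0.00282). Irgm1 had levels of 2.17, 2.10 and 1.42 in antibody tumours on days 3, 5 and 7, against 6.57, 5.65 and 4.32 in IgG tumours, a fitted difference of -3.61 ± 0.42 (limma adjusted p = 0.00274). Irgm2 had levels of 1.99, 1.61 and 0.27 in antibody tumours on days 3, 5 and 7, against 6.95, 5.79 and 4.39 in IgG tumours, a fitted difference of -4.42 ± 0.48 (limma adjusted p = 0.00203). In these 3 regulators, as in the effectors, day 7 was the lowest day in the antibody arm and in the IgG arm. Standard errors in this comparison pool the spread of all arms. Without day 5 none of the 5 members passed the threshold (limma adjusted p from 0.0673 to 0.1001), with differences from -6.57 to -3.65. With a single CTL effect for all days in the model the adjusted p was 0.0547 for each member, at unchanged differences.

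**Figure D3:**
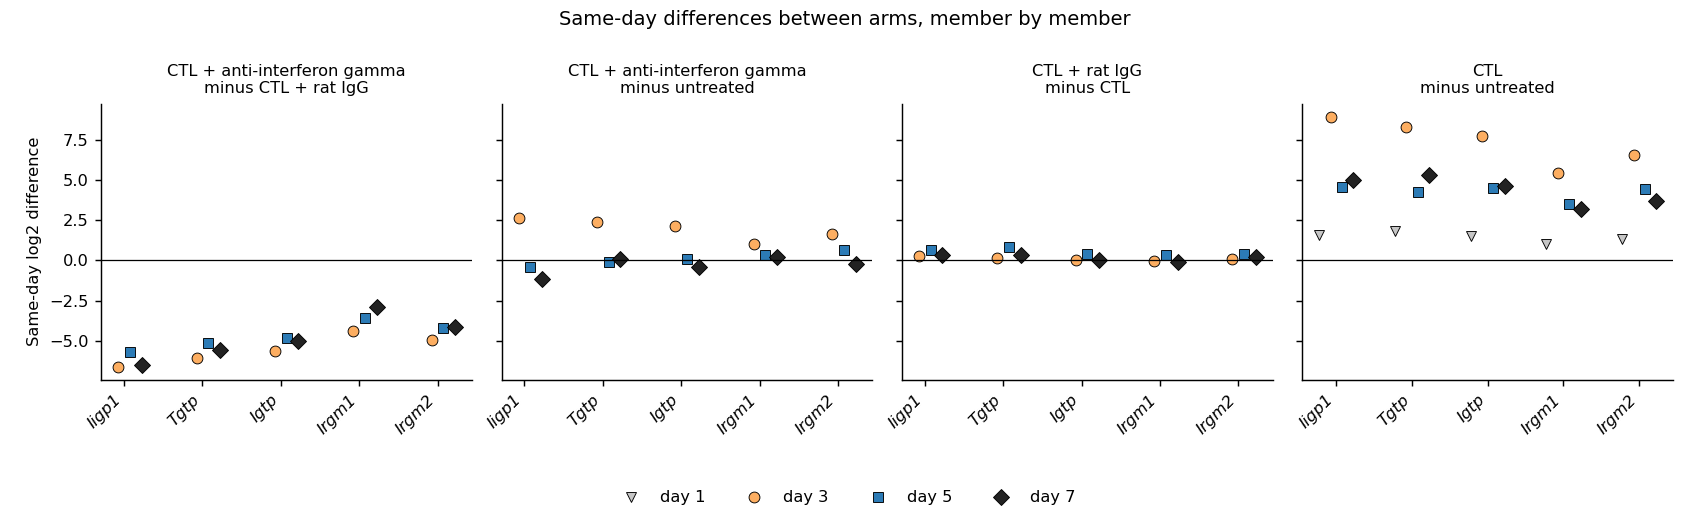
Same-day log2 differences of the 5 members for the 4 pairs of arms, 1 point per member and day. Antibody minus IgG lies between -6.63 and -2.89, antibody minus untreated is above 0 for all members on day 3 only, IgG minus CTL stays near 0, and CTL minus untreated is largest on day 3.

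With the antibody, tumours that had received CTLs were also set against untreated tumours. The fitted differences were 0.34 ± 0.81 for Iigp1, 0.79 ± 0.66 for Tgtp, 0.61 ± 0.61 for Igtp, 0.51 ± 0.42 for Irgm1 and 0.71 ± 0.48 for Irgm2. In limma 0 of 5 passed the threshold (adjusted p from 0.860 to 0.999) and 0 had an unadjusted p below 0.05, against 0.162% of all genes called in either direction. The 95% intervals reach from -1.53 to 2.21 for Iigp1 and from -0.41 to 1.82 for Irgm2, so differences of that size are not excluded by these arrays. The days differed. On day 3 every member was higher in antibody than in untreated tumours, by 1.00 for Irgm1 up to 2.61 for Iigp1. On day 5 the differences lay between -0.41 and 0.67 and on day 7 between -1.17 and 0.20, both with Iigp1 lowest. Without day 3 the fitted difference of Iigp1 was -0.79 and that of Igtp -0.16, neither past the threshold.

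IgG tumours had fitted differences from CTL tumours of 0.43 ± 0.81 for Iigp1, 0.46 ± 0.66 for Tgtp, 0.15 ± 0.61 for Igtp, 0.08 ± 0.42 for Irgm1 and 0.24 ± 0.48 for Irgm2. In limma 0 of 5 passed (adjusted p from 0.706 to 0.930) and 0 had an unadjusted p below 0.05, against 0.012% of all genes called. The 95% interval was widest for Iigp1, from -1.44 to 2.30, and narrowest for Irgm1, from -0.90 to 1.05. Over days 3 to 7 each member was thus highest in IgG and CTL tumours, which did not differ beyond their spread, and lowest in antibody and untreated tumours, whose ranges overlapped for all 5.

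Each of the 10 pairs of members was correlated over the 14 arrays, as a description. Pearson r ran from 0.984 for Iigp1 with Irgm1 to 0.997 for Tgtp with Igtp. The arrays share 4 arms and 4 days, so these values mostly carry the contrast between arms.

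Further IRG genes were taken from a list of 9, which does not hold Ifi47, described with the genes of like profile. Of the 9, 5 were on the array and 3 passed the filter on dim probes, while Gm4951 and Irgc1 did not. Where no array of an arm was well above background, a difference is given as a lower bound, the bright arm's mean set against the background limit of the dim arm's arrays. Gm12250 (Irgb10), an effector, stayed at background on each antibody and untreated array, while its levels on days 3, 5 and 7 were -0.09, -1.86 and -4.21 in IgG tumours and -0.61, -2.996 and -4.38 in CTL tumours. It was at least 4.85-fold lower in antibody than in IgG tumours and at least 3.33-fold higher in CTL than in untreated tumours. Of each bright arm, 2 of the 3 arrays were well above background. The gene listed as 9930111J21Rik2 was at least 2.29-fold lower with the antibody and at least 3.43-fold higher with CTLs. Both genes passed the filter on dim probes only through arrays of CTL and IgG tumours. The filter thus favoured a call for them, and no p-value is given beside the bounds. Irgq was slightly lower in CTL tumours, at -0.81 against -0.23 in untreated tumours over days 3 to 7, a difference of -0.58 ± 0.14 (limma adjusted p = 0.0155). That call was lost with 1 CTL effect for all days and without each of days 3, 5 and 7. The antibody minus IgG difference of Irgq, 0.23 ± 0.14, did not pass (limma adjusted p = 0.291). Without day 3, and without day 5, 0 genes of this list were called in either comparison.

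Guanylate-binding proteins (GBP), the other interferon-inducible GTPase family that acts on pathogen vacuoles, moved in the same directions. With the antibody 10 of 10 measured GBP genes were called lower, at a median of -4.88, against 6.04% of all genes. With CTLs 10 of 10 were called higher, at a median of 5.22, against 10.3% of all genes. Gbp2b and Gbp8 were at background on every antibody and untreated array of days 3 to 7, so the filter on dim probes favoured their calls. With dim genes at their bound the medians were -4.54 and 4.78. The calls depend on the days: without days 3, 5 and 7 in turn, 7, 0 and 10 GBP genes were called lower with the antibody, and 8, 6 and 10 higher with CTLs. With a single CTL effect for all days, 0 were called lower with the antibody (adjusted p up to 0.0698) and 9 higher with CTLs. Under that model and without day 5, 0 genes were called with the antibody in each of the other lists of genes and markers described here. Gbp6 and Gbp4 had fitted CTL minus untreated differences of 7.60 ± 0.90 and 7.55 ± 0.86, and 1 of the 3 untreated arrays was well above background for each, so these sizes rest in part on signals at background. Gbp11 was at least 52.3-fold and Gbp2b at least 2.53-fold higher with CTLs, both at background on all untreated arrays of those days. Gbp9, measured on all of those arrays, differed by 1.99 ± 0.49.

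**Figure D4:**
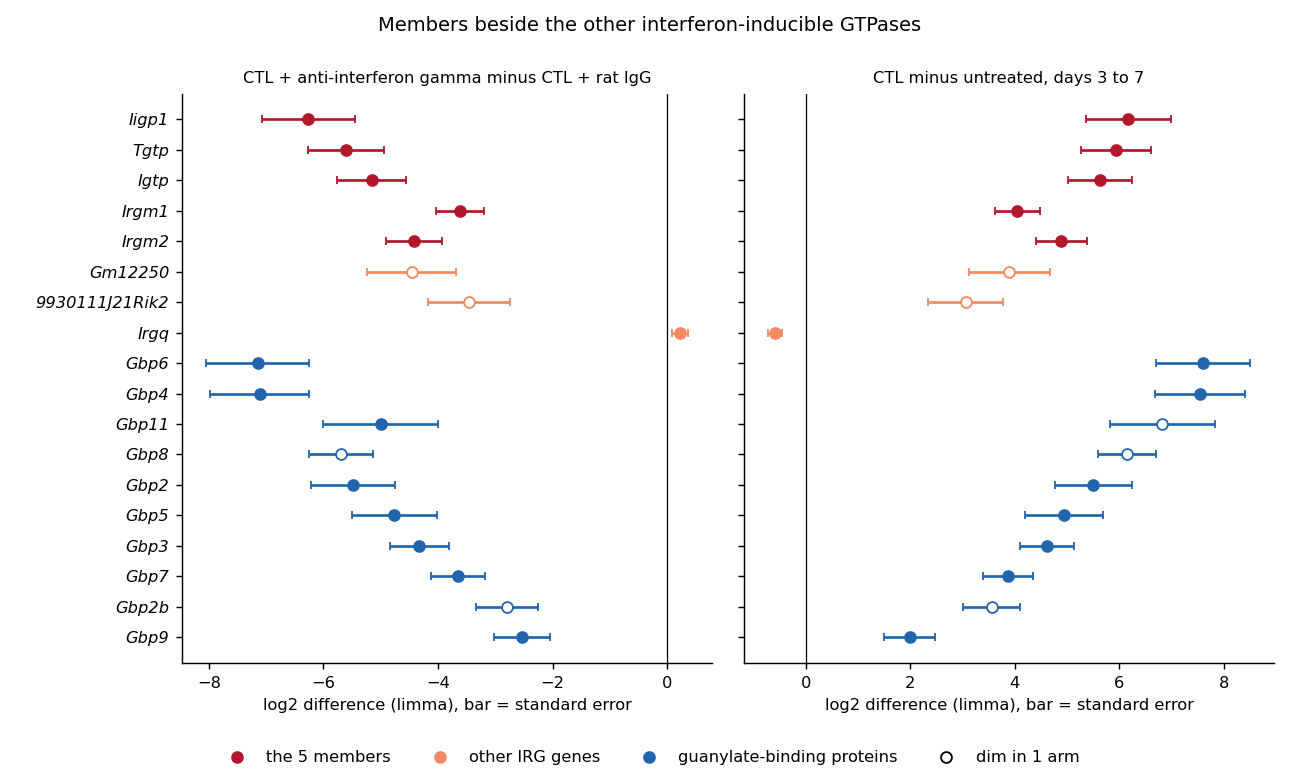
Fitted log2 differences with standard errors for the 5 members (red), 3 other IRG genes (orange) and 10 guanylate-binding proteins (blue), for antibody minus IgG and for CTL minus untreated tumours over days 3 to 7. Open points are genes at background on all arrays of 1 arm, whose fitted value is no bound. All genes shown but Irgq lie below 0 in the antibody comparison and above 0 in the CTL comparison.

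Genes of interferon gamma signalling were described next to the members. Of 14 measured, 8 were called lower with the antibody, against 6.04% of all genes, and 10 higher with CTLs, against 10.3%. The medians were -1.61 and 1.73. Without day 5 the counts were 0 and 3. Ifng, the ligand, had levels of 0.23, -1.58 and -3.24 in antibody tumours on days 3, 5 and 7, against 2.05, 0.36 and -1.62 in IgG tumours. That difference of -1.79 ± 0.56 did not pass the threshold (limma adjusted p = 0.0738). With CTLs alone Ifng had levels of -2.86, 2.74, 0.45 and -1.55 on days 1, 3, 5 and 7, against -4.44, -4.96, -4.32 and -6.05 in untreated tumours, where only the day 5 array was well above background. Like the members, Ifng was highest on day 3 in both antibody arms and in CTL tumours, and lower on day 7.

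The transcription factor Irf1 fell by 3.62 ± 0.51 with the antibody (limma adjusted p = 0.00478) and rose by 3.86 ± 0.51 with CTLs (limma adjusted p = 0.00167). Irf8, a factor of myeloid cells that interferon gamma also induces, and Socs1, an inhibitor of the kinases, had CTL minus untreated differences of 5.45 ± 0.55 and 4.28 ± 0.59. The 2 smallest differences were in Ifngr2, a receptor chain, at 0.10 ± 0.16, and in the phosphatase gene Ptpn2, at -0.03 ± 0.16, neither past the threshold.

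In mice the LC3 and GABARAP conjugation machinery of autophagy directs IRG and GBP proteins to vacuoles. Of 12 such genes 1 was called in each comparison, against 2120 of 16628 genes with the antibody and 5323 with CTLs. The medians were -0.06 for antibody minus IgG and 0.05 for CTL minus untreated. With 1 CTL effect for all days, or without day 3 or day 5, 0 genes of the list were called in either comparison. Without day 7 the calls were 0 with the antibody and 1 with CTLs. Atg12 fell by 0.41 ± 0.11 with the antibody (limma adjusted p = 0.0488) and is named because it was the only gene called there. Gabarapl2 fell by 0.34 ± 0.11 with CTLs (limma adjusted p = 0.0493). Map1lc3b and Becn1 were next in size at -0.30 ± 0.15 and -0.29 ± 0.17, while Atg5 and Atg16l1 had the smallest differences, 0.03 ± 0.10 and -0.03 ± 0.11, none of the 4 past the threshold.

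Markers of the cells that a tumour can hold moved too. Summed scaled signal of 9 T cell markers over days 3 to 7 lay between 2.44 and 4.25 in antibody tumours, 4.62 and 11.04 in IgG tumours, 6.31 and 13.1 in CTL tumours and 1.62 and 2.42 in untreated tumours, where 4 to 6 of the 9 were well above background. Of these 9 markers 6 were called lower with the antibody and 9 higher with CTLs. Cd247 was at background on every antibody and untreated array of those days, so the filter on dim probes favoured its calls. With its bound it was at least 1.35-fold lower with the antibody and 1.91-fold higher with CTLs. Cd3d and Cd8a were called higher in antibody than in untreated tumours, against 27 of 16628 genes in either direction. With 1 CTL effect for all days that count over all genes was 0. For 10 macrophage markers the sums lay between 38.2 and 67.0 in antibody tumours, 65.2 and 122 in IgG tumours, 87.2 and 118 in CTL tumours and 22.8 and 25.2 in untreated tumours, with 6 called lower with the antibody and 8 higher with CTLs. Such sums are led by the brightest probes, here that of Lyz2. Its antibody minus IgG difference of -0.69 ± 0.20 did not pass (limma adjusted p = 0.0616). The median difference of the 10 macrophage markers was -1.52 with the antibody and 2.07 with CTLs. Itgam, called in both comparisons, was at background on every antibody and untreated array of days 3 to 7, so the filter favoured its calls. With its bound it was at least 3.55-fold lower with the antibody and 2.20-fold higher with CTLs. None of 10 melanocyte markers was called in either comparison, with sums between 1538 and 1765 in antibody tumours, 1599 and 1635 in IgG tumours, 1547 and 1845 in CTL tumours and 1380 and 1919 in untreated tumours, and on those days all 10 exceeded background on each array. Of 9 endothelial markers 6 were called higher with the antibody and 5 lower with CTLs. Of all 16628 genes, 1115 were called higher and 1005 lower with the antibody, and 1717 higher and 3606 lower with CTLs. The marker calls depend on the days. Without days 3, 5 and 7 in turn, 1, 0 and 6 T cell markers were called with the antibody. Macrophage calls were 5, 0 and 4, and endothelial calls 0, 0 and 5. With CTLs the T cell calls were 6, 5 and 9, macrophage calls 6, 4 and 7, and endothelial calls 1, 2 and 4. The part of these cell types in the members' differences was not tested. In RNA of whole tumours, a change in the number of cells of a type and a change in RNA per cell cannot be told apart.

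**Figure D5:**
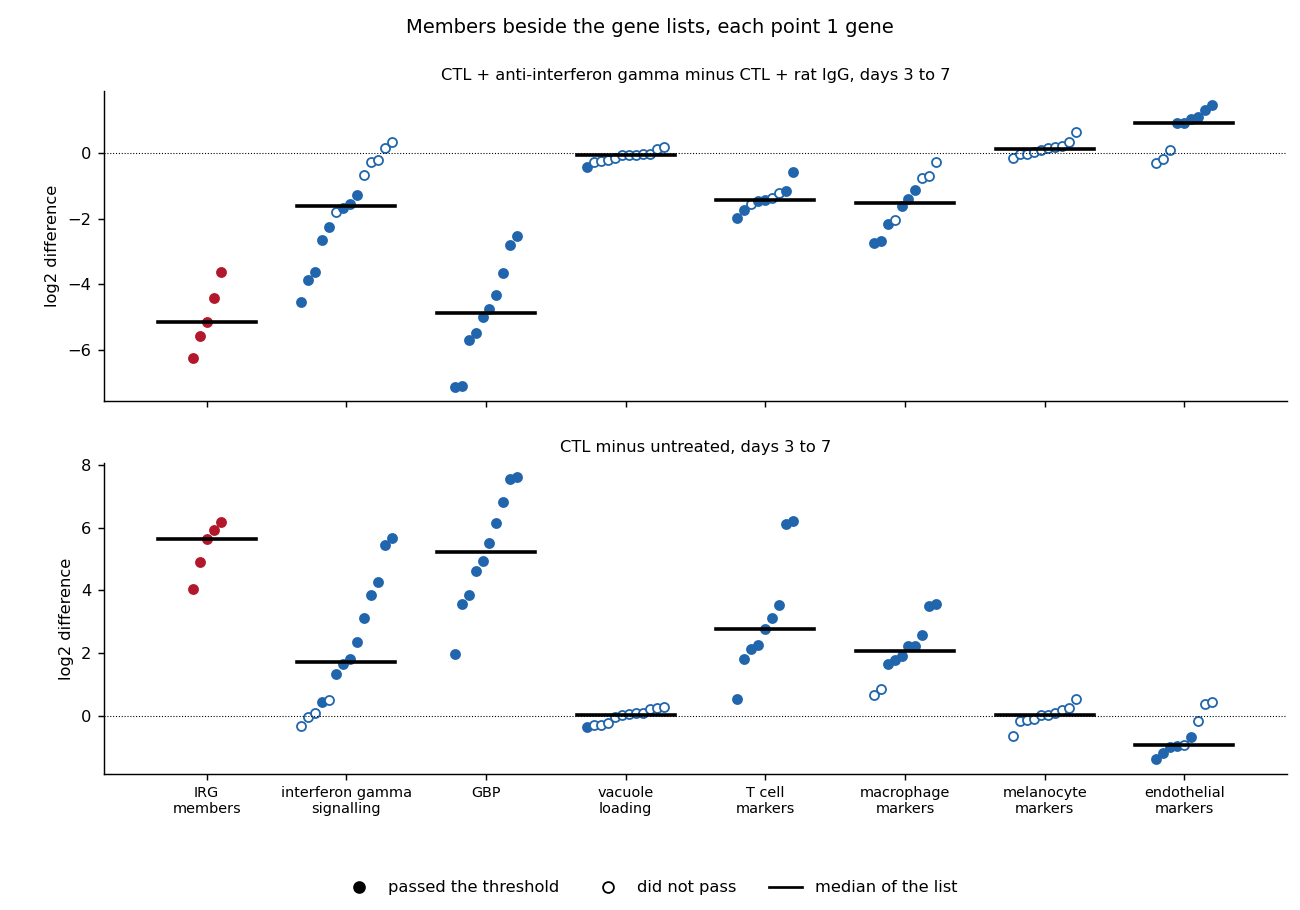
Fitted log2 differences, 1 point per gene, for the 5 members (red) and 7 gene lists (blue), with filled points past the threshold and a line at the median of each list. The members' medians of -5.16 (antibody minus IgG) and 5.62 (CTL minus untreated) lie near those of the GBP genes, while vacuole loading genes and melanocyte markers lie near 0. Dim genes are drawn at their fitted value.

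Genes outside the members were ranked by likeness of their profile over the 14 arrays to the members' mean, with clone and accession names left out. The 8 nearest were Gbp4 (Pearson r = 0.998), Gbp3, Ifi47, Gbp2, Gbp6, Zbp1, Irf8 and Cxcl9 (Pearson r = 0.990). Gbp4 was well above background on 9 of the 14 arrays and Gbp6 on 11, so both profiles rest in part on signals at background. Ifi47 is itself an IRG gene (Irgd), with a difference of -4.59 ± 0.68 for antibody minus IgG and of 4.93 ± 0.68 for CTL minus untreated. Zbp1, a sensor of nucleic acids, differed by -6.23 ± 0.81 and 6.47 ± 0.81 in the same comparisons, and Cxcl9, a T cell chemokine, by -4.92 ± 0.72 and 6.36 ± 0.72. The 14 points share 4 arms and 4 days, and the likeness carries no test.

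Each arm lay at the same position on all 4 slides, so arm and position cannot be told apart, and the day equals the slide, so same-day differences are taken within slides. In the reported fit, p-values for differences between arms set the fitted difference against a spread of pooled tumours between days, taken over all arms. They do not measure how far the same-day differences of only the compared arms vary over 3 days.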

How the data were processed

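RNA of pooled B16F10 tumours was hybridised to 14 one-colour Agilent arrays on 4 slides. Per the submitters' processing notes, the scanner software was Agilent Feature Extraction 9.5. The deposited intensity used here is the processed signal, with background subtracted by that software, per the file headers. The authors' deposited log2 table correlated at r = 1 with the log2 intensity on every array and differed by a constant per array, so it was used as an alternative only.

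From the intensities, log2 was taken, the array's 75th percentile over 43379 non-control spots was subtracted, and spots of a probe were averaged without outlier spots. The 29 probes lacking a value on an array were left out. A probe was kept where well above background on at least 3 arrays, and the probe with the highest mean stood for its gene, which gave 16628 genes. Names came from the accession of a probe for 24368 probes and from a synonym for 2425, while 14373 kept the name in the file.

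Under R 4.3.3, limma 3.58.1 (functions lmFit and eBayes) fitted a model with day, arm and a separate CTL term for day 1. Its p-values were two-sided and adjusted by Benjamini-Hochberg over all genes, with a threshold of 0.05. The slope was fitted on days 3, 5 and 7. To check the pairing by day, deviations from the arm means were correlated between arrays of 1 day: the median r over 18 pairs was 0.134 (from -0.0476 to 0.517), with 12 pairs over 0.1. The scripts were tested on simulated data. The precision is limited by the number of arrays.

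The members, the lists and the rule for named genes were chosen with earlier results of these data known. The rule took all probes of the members and each measured gene of a list of other IRG genes. From 3 lists it took the 3 largest and 2 smallest CTL minus untreated changes, with Ifng and Irf1. It also took the 8 genes nearest in profile, with clone and accession names left out. A further gene that the rule took is not reported here. Alternatives were other background correction, normalization, filters, probe choice, models and leaving out days.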

Additional observations from a re-analysis of the deposited data

How the results depend on the processing

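Over 13 alternatives the 5 members kept the sign of the CTL minus untreated and antibody minus IgG differences, and all 5 passed the threshold for CTL minus untreated in each. For antibody minus IgG they passed in 11 of 13. The count was 0 with 1 CTL effect for all days, where the term for day 1 is absent, and leaving out a day gave between 0 and 5 members (0 without day 5). With no replicate block, that is without the day term, 5 members passed in both comparisons, so the pairing by day changed none of these calls. For the slope, 4 members passed with normexp background correction and 1, Irgm2, with an intensity trend and robust variances, against 0 in the reported fit, and the cause was not tested. For the CTL effect of the later days against day 1, antibody against untreated and IgG against CTL, no alternative made a member pass.

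Counts over all genes moved more. For CTL minus untreated, 5323 genes passed (1717 higher), against 3293 with no filter, 1838 with 1 CTL effect for all days, 838 from the 2 arms alone, 1105 without day 3 and 663 without day 5. For antibody minus IgG, 2120 passed (1115 higher), against 647 (145 higher) with normexp, 1157 (456 higher) with no filter, 2 with 1 CTL effect for all days, 968 (340 higher) from the 2 arms alone, and 406, 50 and 1370 without days 3, 5 and 7. Normexp gave 2028 of 4575 genes higher in CTL tumours and moved the median of all genes from -0.10 to 0.07. For the later CTL effect against day 1, 173 passed, against 42 with normexp, 1528 with no replicate block, 278 with trend and robust variances, 0 from the 2 arms alone, and 5, 4 and 299 without days 3, 5 and 7. For antibody minus untreated, 27 passed, against 0 to 10 in the 7 alternatives that lowered the count by over 1.5 times. For IgG minus CTL, 2 passed, against 0 to 6 over all alternatives. For the slope, 0 passed, against 6091 with normexp and 58 with trend and robust variances. Signal over background limits the third Irgm1 probe, Gm12250 and 9930111J21Rik2.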
